A study of Mus musculus with 12 samples.

Results

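The genes described here are 31 genes of the choroid plexus epithelium, the cell layer that makes cerebrospinal fluid, out of 53379 genes in the count table. They were found by matching the Ensembl identifiers of the table to a list of mouse symbols, and all 31 matched. The list was drawn up with earlier results of these libraries known, so its genes were selected on levels seen in these 12 libraries, with no threshold stated. The levels and fold changes below are therefore a description of what chose the genes, and no test of them is offered. All 31 passed the filter on low counts, which left 19252 genes. For genes that are low elsewhere, the libraries in which they are high could by themselves have carried them past it.

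Total RNA of brain tissue, taken from the injured cortex per the design text, was sequenced as paired reads, and all mice were wild-type C57BL/6J. There were 4 groups of 3 libraries, 12 in all, each collected 6 months after the injury or sham procedure. Fish oil injured mice were fed a high-fat diet to which fish oil was added cyclically, and they underwent repetitive closed-head injury below the mild grade. Fish oil sham mice had the same diet and a sham procedure, purified injured mice a continuous purified control diet and the injury, and purified sham mice the purified diet and the sham procedure. Fat content and fish oil both differ between the diets and cannot be told apart. The labels do not tie the libraries to separate animals, so error terms measure the spread between libraries, which may be technical. The replicates are numbered 2, 3 and 4 in every group, and values below are given in that order.

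The choroid plexus is a folded epithelium on a core of stroma and leaky vessels that hangs in the brain ventricles. Its epithelial cells secrete cerebrospinal fluid by moving ions, bicarbonate and water, and they release carrier proteins such as transthyretin into it. Tight junctions between them form the barrier between blood and cerebrospinal fluid, and the tissue is not a part of the cortex. In bulk tissue, more cells of a type in the sample and more RNA per cell cannot be told apart.

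Total counts per library ran from 46362158 to 70754854, with counts for 23207 to 24579 genes. By these totals, a level of 1 CPM stood for 46.4 to 70.8 counts (CPM, counts scaled to a common library size). The levels given here were also scaled by TMM factors of 0.9411 to 1.059, which shift these counts slightly. Values of 2 outnumbered values of 1 in the table, 20514 against 11222, so both mates of a read pair may have been counted. The cortical label was checked against markers of cortical excitatory neurons: Slc17a7 ran from 492 to 1083 CPM and Tbr1 from 45.8 to 140.5 CPM over the 12 libraries. Hox genes of the hindbrain were at or near 0, with summed levels of at most 0.228 CPM. These markers do not show that a library held cortex alone.

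The libraries fell apart in the levels of the 31 genes. The genes took 0.454% and 0.432% of all counts in fish oil injured replicates 3 and 4 and 0.08% in fish oil injured replicate 2. They took 0.0401% to 0.0507% in the fish oil sham libraries, 0.0398% to 0.0407% in the purified injured libraries, and 0.041%, 0.113% and 0.0459% in the purified sham libraries. Fish oil injured replicates 3 and 4 thus stood far above the rest, and purified sham replicate 3 and fish oil injured replicate 2 stood between these and the other 8 libraries. Fish oil injured replicates 3 and 4 and purified sham replicate 3 are called the high libraries below. Ttr alone made up 22.9%, 51.4% and 49.1% of the counts on the 31 genes in the fish oil injured libraries and 38.2% in purified sham replicate 3, against 2.61% to 9.92% in the other 8. The first number of the library name is 14 for fish oil injured replicates 3 and 4 and 11 for replicate 2, and it is 10 for purified sham replicates 3 and 4, which differ. Each first number occurs in 1 group, so it cannot be compared across groups, but it varies within each group. The second number is 1 for replicate 3 of fish oil injured, fish oil sham and purified sham. These libraries held the highest Ttr of their groups, at 2416, 50.1 and 434 CPM. Fish oil injured replicate 4, with the second number 4, was at 2255 CPM. The sources used here do not say what either number stands for, and their part in the levels was not tested.

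**Figure D1:**
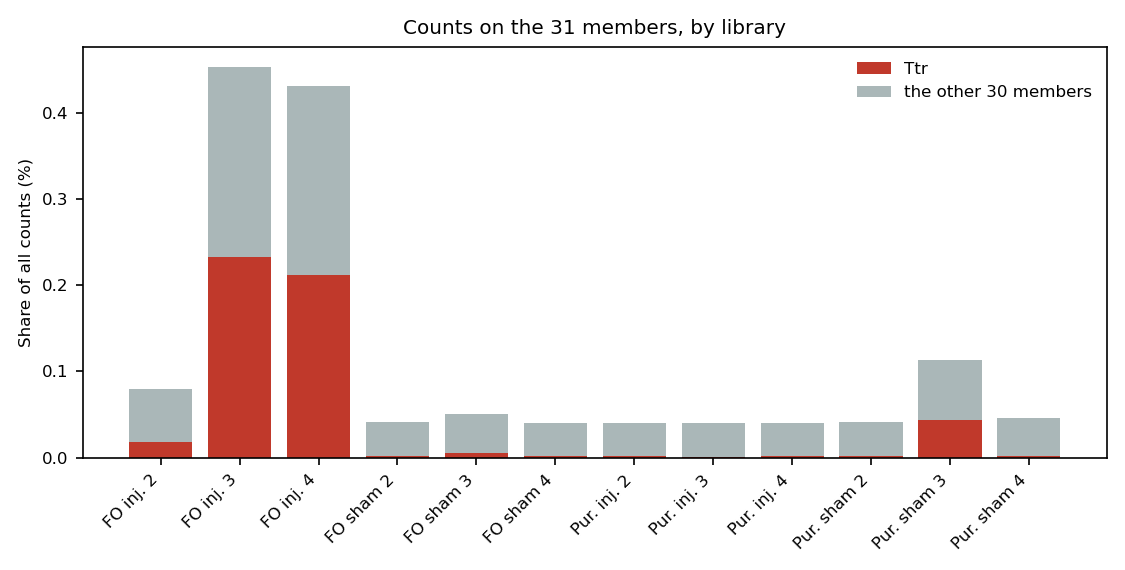
Share of all counts on the 31 genes in each library (percent, linear axis from 0), with Ttr in red and the other 30 genes in grey; groups run from fish oil injured to purified sham. The tallest bars are fish oil injured replicates 3 and 4, at 0.454% and 0.432%, and the next are purified sham replicate 3 at 0.113% and fish oil injured replicate 2 at 0.08%.

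Start regions are shown for 4 of the genes because 28 of the 31 were highest in the same pair of libraries, fish oil injured replicates 3 and 4, and Otx2, a homeodomain factor that choroid plexus cells need, is itself among them. Over all tested genes, 3.31% had both of these libraries above the 9 libraries of the other groups. Slc4a5 and Cldn2 are among those with the largest difference on the fish oil diet, and Otx2 and Ace are the genes whose windows hold the bicoid-type motif TAATCC or its reverse complement GGATTA, shown in capitals. Each window runs from 250 bases before to 50 bases after a RefSeq transcript start (GRCm38.p6) and is written 5′ to 3′ on the strand of the gene. They lie at chr6:83237125-83237424 (plus strand) for Slc4a5, chrX:139800558-139800857 (plus) for Cldn2, chr14:48665060-48665359 (minus) for Otx2 and chr11:105967698-105967997 (plus) for Ace.
Slc4a5: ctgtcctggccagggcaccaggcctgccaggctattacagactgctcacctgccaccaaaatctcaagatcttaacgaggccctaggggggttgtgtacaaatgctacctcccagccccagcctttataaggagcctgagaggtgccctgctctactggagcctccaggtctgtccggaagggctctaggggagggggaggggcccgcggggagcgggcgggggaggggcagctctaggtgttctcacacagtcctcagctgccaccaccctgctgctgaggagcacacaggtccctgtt
Cldn2: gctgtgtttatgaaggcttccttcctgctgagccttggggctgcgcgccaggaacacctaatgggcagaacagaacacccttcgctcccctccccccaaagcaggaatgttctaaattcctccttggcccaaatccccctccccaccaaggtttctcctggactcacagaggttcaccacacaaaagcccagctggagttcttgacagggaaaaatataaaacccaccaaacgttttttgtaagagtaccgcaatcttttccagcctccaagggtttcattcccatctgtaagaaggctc
Otx2: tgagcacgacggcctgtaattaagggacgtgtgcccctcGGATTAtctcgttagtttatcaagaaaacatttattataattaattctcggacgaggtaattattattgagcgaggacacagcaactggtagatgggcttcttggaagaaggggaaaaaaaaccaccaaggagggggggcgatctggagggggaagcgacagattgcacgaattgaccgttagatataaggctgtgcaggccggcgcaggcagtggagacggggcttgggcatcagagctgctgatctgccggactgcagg
Ace: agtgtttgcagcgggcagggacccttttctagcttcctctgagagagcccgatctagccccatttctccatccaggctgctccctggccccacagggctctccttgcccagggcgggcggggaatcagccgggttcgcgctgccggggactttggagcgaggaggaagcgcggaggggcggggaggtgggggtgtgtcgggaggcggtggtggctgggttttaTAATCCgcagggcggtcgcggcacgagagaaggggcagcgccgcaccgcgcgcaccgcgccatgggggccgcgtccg
The motif lies 211 bases before the start in the Otx2 window and 27 bases before it in the Ace window. Windows at the other starts of Otx2 and Ace, which are not printed, lacked it. RefSeq windows were used for 25 of the 31 genes, 34 windows in all with other starts of the same genes. Ttr was not among the 25, since windows of its chromosome were left out for the 31 genes but not for the background. On either strand the TAATCC motif was found in 2 of the 34 (5.88%), against 7.06% of all 32851 windows, a share near the background. The motif CAATTA, of the type bound by MSX factors, was found in 5 of the 34 (14.7%), from 4 of the 25 genes, against 8% of all windows. TAATTA, a homeodomain core that is its own reverse complement, was found in 3 of the 34 (8.82%), from 2 of the 25 genes, against 5.29% of all windows. These are matches of letters and say nothing about binding, and control of the genes by Otx2 was not tested.

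The 6 genes for secreted proteins, Ttr, Enpp2, F5, Sostdc1, Lbp and Igfbp2, were all highest in fish oil injured replicates 3 and 4. Ttr, which encodes the carrier of thyroxine and of retinol-binding protein, had 186, 2416 and 2255 CPM in fish oil injured, 20.8, 50.1 and 20.8 CPM in fish oil sham, 14.1, 9.82 and 23.3 CPM in purified injured, and 17.3, 434 and 17.5 CPM in purified sham libraries. The 3 fish oil injured libraries were all above the 3 fish oil sham libraries, although replicate 2 was below purified sham replicate 3. The log2 fold change on the fish oil diet was 5.73 ± 1.42 (SE, 3 libraries against 3), and 2.60 without the high libraries. Where the high libraries are left out, the fish oil injured group is 1 library, assumed to vary like the other groups.

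Enpp2, which encodes autotaxin, the enzyme that makes lysophosphatidic acid, had 427, 1559 and 1632 CPM in fish oil injured, 235, 347 and 213 CPM in fish oil sham, 287, 222 and 191 CPM in purified injured, and 289, 521 and 328 CPM in purified sham libraries. It is abundant in oligodendrocytes too, and its level was at least 191 CPM in all 12 libraries, and its log2 fold change on the fish oil diet was 2.19 ± 0.45. F5, coagulation factor V, had 6.50, 47.6 and 49.7 CPM in fish oil injured, 1.08, 1.13 and 1.16 CPM in fish oil sham, 0.847, 2.08 and 1.70 CPM in purified injured, and 1.22, 9.87 and 2.00 CPM in purified sham libraries. Its fish oil sham libraries lay within a narrow band, and all 3 fish oil injured libraries lay above it, with a log2 fold change of 4.94 ± 0.93.

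Lbp, which encodes a binding protein for bacterial lipopolysaccharide, had 2.23, 11.3 and 14.7 CPM in fish oil injured, 1.56, 1.25 and 1.03 CPM in fish oil sham, 1.46, 1.65 and 3.04 CPM in purified injured, and 2.35, 2.53 and 2.30 CPM in purified sham libraries. Purified sham replicate 3, high for most of the genes, was level with its group for Lbp. Sostdc1, an antagonist of BMP signalling, had 1.45, 15.8 and 13.7 CPM in fish oil injured and 1.29, 0.62 and 0.516 CPM in fish oil sham libraries, and it reached 3.28 CPM in purified sham replicate 3. Igfbp2, a binding protein for insulin-like growth factors, had 5.05, 23.9 and 22.7 CPM in fish oil injured, 7.07, 7.84 and 11.8 CPM in fish oil sham, 8.96, 18.6 and 10.7 CPM in purified injured, and 4.11, 5.40 and 7.82 CPM in purified sham libraries. Its groups overlapped on the fish oil diet, since fish oil injured replicate 2 was below every fish oil sham library.

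Among the receptors and surface enzymes, Folr1, Kl and Prlr stood apart from the fish oil sham group in all 3 fish oil injured libraries. All 3 were above all fish oil sham libraries for 4.97% of all tested genes. The genes named here were chosen with their levels known. Folr1, the folate receptor that carries folate into cerebrospinal fluid, had 1.31, 20.3 and 17.4 CPM in fish oil injured, 0.38, 0.352 and 0.452 CPM in fish oil sham, 0.158, 0.244 and 0.6 CPM in purified injured, and 0.562, 3.28 and 0.535 CPM in purified sham libraries. In 8 libraries the gene was below 1 CPM, and the log2 fold change on the fish oil diet was 5.04 ± 1.06, or 1.72 without the high libraries. Kl, klotho, the co-receptor for the phosphate hormone FGF23, had 14.0, 84.7 and 101 CPM in fish oil injured, 7.30, 6.14 and 5.70 CPM in fish oil sham, 3.72, 2.77 and 5.12 CPM in purified injured, and 3.37, 17.0 and 5.26 CPM in purified sham libraries. All fish oil sham libraries of Kl were above all purified injured libraries, and the log2 fold change of fish oil injured over fish oil sham was 3.38 ± 0.73. Folr1 overlaps Anapc15 on the opposite strand, and the sources used here do not state the strand setting of the counting, so these genes may share reads.

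Prlr, the prolactin receptor gene, had 18.9, 41.8 and 47.8 CPM in fish oil injured, 4.37, 1.77 and 5.83 CPM in fish oil sham, 1.38, 0.652 and 8.22 CPM in purified injured, and 1.80, 8.21 and 2.00 CPM in purified sham libraries. Fish oil injured replicate 2 was closer to replicates 3 and 4 for Prlr than for Ttr. Purified injured replicate 4 was the highest of the 9 libraries outside the fish oil injured group, level with purified sham replicate 3. Ace, angiotensin-converting enzyme, had 20, 76.8 and 61.1 CPM in fish oil injured, 18.5, 14.2 and 23.1 CPM in fish oil sham, 14.6, 11.3 and 27.9 CPM in purified injured, and 12.1, 21.8 and 15.8 CPM in purified sham libraries. For Ace the groups overlapped, and its log2 fold change was 1.5 ± 0.47, or 0.10 without the high libraries.

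Of the 8 genes for water and ion transport, Slc4a5, Aqp1, Kcne2 and Kcnj13 had fish oil injured libraries above all fish oil sham libraries. The same held for 4.97% of all tested genes, and the 8 were chosen with their levels known. Slc4a5, a sodium bicarbonate cotransporter of the apical membrane, had 2.02, 22.1 and 21.0 CPM in fish oil injured, 0.038, 0.422 and 0.29 CPM in fish oil sham, 0.177, 0.122 and 0.2 CPM in purified injured, and 0.165, 5.17 and 0.392 CPM in purified sham libraries. This was the largest log2 fold change of the 31 on the fish oil diet, 5.85 ± 1.38, or 2.97 without the high libraries. Kcne2, a potassium channel subunit, had 1.76, 14.7 and 11.8 CPM in fish oil injured, 0.114, 0.676 and 0.355 CPM in fish oil sham, and at most 0.448 CPM in purified injured libraries, and it reached 2.64 CPM in purified sham replicate 3. Kcnj13, an inward rectifier potassium channel, had 4.23, 30.6 and 27.6 CPM in fish oil injured, 1.96, 2.13 and 2.84 CPM in fish oil sham, 1.26, 1.79 and 4.30 CPM in purified injured, and 1.57, 6.02 and 2.12 CPM in purified sham libraries. Kcnj13 lies within Gigyf2 on the opposite strand, a gene with more counts, so part of its level may be shared reads.

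Aqp1, the water channel aquaporin-1, had 2.11, 21.5 and 19.5 CPM in fish oil injured, 0.722, 0.507 and 0.436 CPM in fish oil sham, 0.492, 32.5 and 0.88 CPM in purified injured, and 0.397, 2.43 and 0.285 CPM in purified sham libraries. Its highest library was thus purified injured replicate 3, in which Ttr was lowest of all 12. That library also had 521 CPM of Cdhr1, a gene of olfactory bulb output neurons, and a summed level of 765 CPM over 6 olfactory bulb genes, against 3.83 to 33.3 CPM in the libraries outside the purified injured group. The part of other tissue in the Aqp1 value was not tested. Clic6, a chloride channel protein, had 10.6, 43.3 and 45.8 CPM in fish oil injured and 16.2, 4.68 and 4.02 CPM in fish oil sham libraries, so that its groups overlapped through fish oil sham replicate 2.

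The cation channel gene Trpv4 had 0.781, 5.51 and 5.71 CPM in fish oil injured and 1.03, 0.282 and 0.71 CPM in fish oil sham libraries. Car12, a carbonic anhydrase, had 26.7, 54.7 and 47.8 CPM in fish oil injured, 28.2, 3.24 and 19.4 CPM in fish oil sham, 10.1, 13.0 and 24.4 CPM in purified injured, and 3.17, 9.21 and 11.3 CPM in purified sham libraries. For both genes fish oil injured replicates 3 and 4 were above all fish oil sham libraries and replicate 2 was not. Slc13a4, a sodium sulfate cotransporter that is also found in the meninges, had 9.50, 36.7 and 18.8 CPM in fish oil injured, 13.8, 12.2 and 23.6 CPM in fish oil sham, 8.25, 13.6 and 30.2 CPM in purified injured, and 8.87, 11.3 and 11.4 CPM in purified sham libraries. It had the smallest log2 fold change of the 31 on the fish oil diet, 0.40 ± 0.52, and -0.22 without fish oil injured replicate 3.

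**Figure D2:**
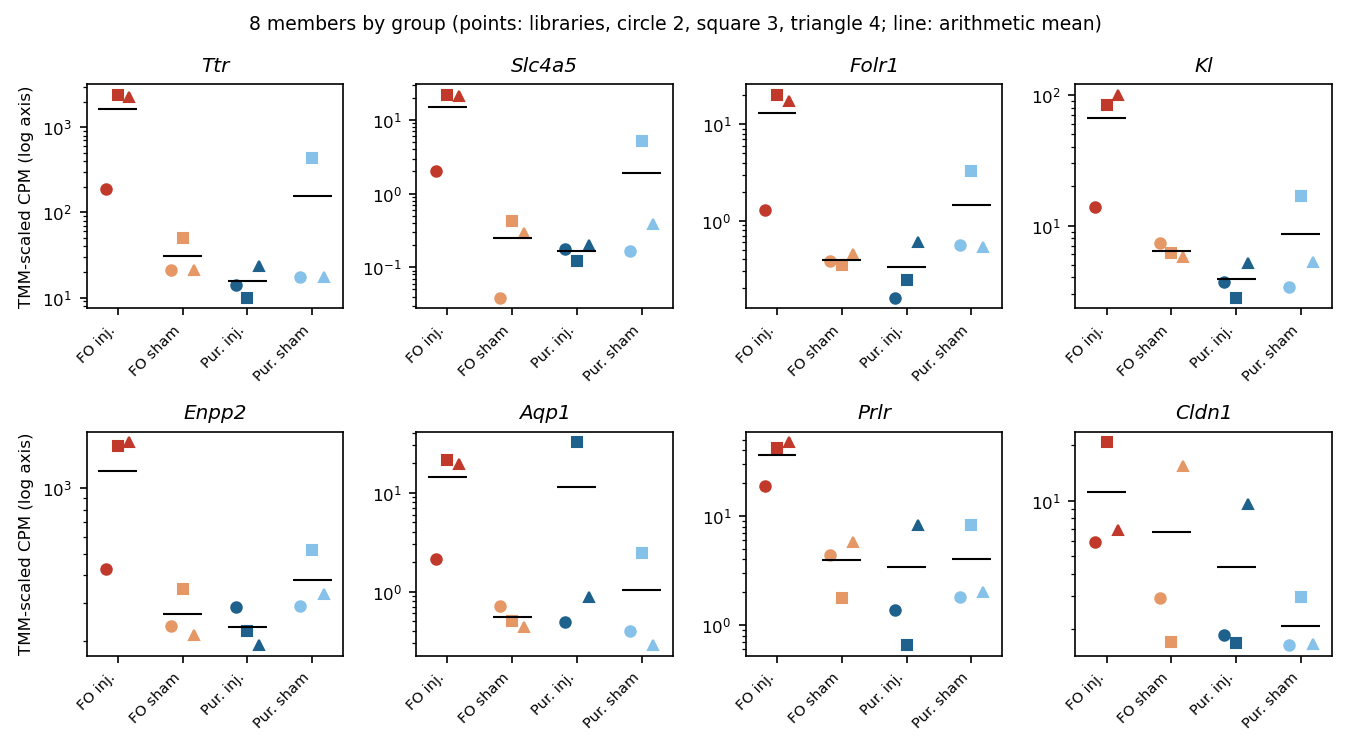
Levels of 8 of the genes (TMM-scaled CPM, log axis) in fish oil (FO) injured, FO sham, purified (Pur.) injured and Pur. sham libraries; circles, squares and triangles are replicates 2, 3 and 4 and lines are arithmetic means. In 7 of the 8 panels fish oil injured replicates 3 and 4 lie above every other group's highest library or, for Aqp1, above all but purified injured replicate 3, while the Cldn1 panel shows overlapping groups.

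The transcription factor genes were low in all libraries. Otx2, a homeodomain factor, had 2.03, 6.82 and 10.6 CPM in fish oil injured, 0.228, 1.01 and 0.904 CPM in fish oil sham, 0.315, 0.896 and 1.08 CPM in purified injured, and 3.47, 2.17 and 0.285 CPM in purified sham libraries. Purified sham replicate 2, in which Ttr was 17.3 CPM, was the highest of the libraries outside the fish oil injured group. The same library held the highest values of the 12 for the pineal genes Crx, 1.55 CPM, and Tph1, 6.41 CPM, and Crx is a relative of Otx2 found in pineal and retinal cells. Over 6 pineal genes its summed level was 10.6 CPM, against 0.474 to 1.49 CPM in fish oil injured, 0.759 to 1.81 CPM in fish oil sham and 2.15 to 4.52 CPM in purified injured libraries. The part of pineal tissue in the Otx2 value was not tested.

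Msx1, a homeodomain factor, had 1.67, 3.53 and 1.87 CPM in fish oil injured and 0.456, 1.20 and 1.08 CPM in fish oil sham libraries, which did not overlap. Lmx1a, a factor of the embryonic roof plate, had 0.472, 0.754 and 1.08 CPM in fish oil injured and 0.076, 0.225 and 0.0323 CPM in fish oil sham libraries, also without overlap. Their log2 fold changes were 1.36 ± 0.42 for Msx1 and 2.73 ± 0.76 for Lmx1a, against 3.17 ± 0.90 for Otx2.

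The claudins of the tight junction differed from each other. Cldn2, which encodes the claudin of leaky epithelia, had 2.25, 19.0 and 20.9 CPM in fish oil injured, 0.494, 0.31 and 0.387 CPM in fish oil sham, 0.394, 0.0815 and 0.6 CPM in purified injured, and 1.32, 2.96 and 0.143 CPM in purified sham libraries. Cldn1 had 5.94, 20.9 and 6.93 CPM in fish oil injured, 2.93, 1.69 and 15.5 CPM in fish oil sham, 1.85, 1.67 and 9.54 CPM in purified injured, and 1.62, 2.98 and 1.64 CPM in purified sham libraries. The log2 fold change on the fish oil diet was 5.15 ± 1.10 for Cldn2 and 0.74 ± 0.89 for Cldn1, and Cldn1 was at -0.06 without fish oil injured replicate 3. Krt8 and Krt18, the keratin pair of simple epithelia, were at most 1.71 and 3.66 CPM, both in fish oil injured replicate 4, and the fish oil groups overlapped for Krt8 and not for Krt18.

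Among the remaining genes, Tmem72, a transmembrane protein gene, had 3.76, 38.1 and 36.9 CPM in fish oil injured, 1.03, 0.38 and 0.29 CPM in fish oil sham, 0.0394, 0.998 and 0.38 CPM in purified injured, and 0.463, 8.57 and 0.249 CPM in purified sham libraries. Its log2 fold change on the fish oil diet was 5.56 ± 1.49. Steap1, of the metalloreductase family, had 0.618, 4.46 and 3.75 CPM in fish oil injured and at most 0.197 CPM in fish oil sham libraries. Cab39l, a scaffold of STK11-type kinases, had 51.1, 64.9 and 75.3 CPM in fish oil injured, 44.3, 42.0 and 41.6 CPM in fish oil sham, 39.4, 34.8 and 44.5 CPM in purified injured, and 41.6, 41.5 and 39.0 CPM in purified sham libraries. Cab39l was thus well above 0 in all libraries, with a log2 fold change of 0.58 ± 0.14, and it shares its locus with Cdadc1 on the opposite strand. Calml4, a calmodulin-like gene, Rdh5, a retinol dehydrogenase gene that overlaps Bloc1s1, and the WD repeat gene Wdr86 had log2 fold changes of 2.78 ± 0.76, 2.19 ± 0.58 and 2.45 ± 0.60, each without overlap of the fish oil groups. Fish oil injured libraries were all above fish oil sham libraries for 4.97% of all tested genes, and these genes were chosen with their levels known.

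**Figure D3:**
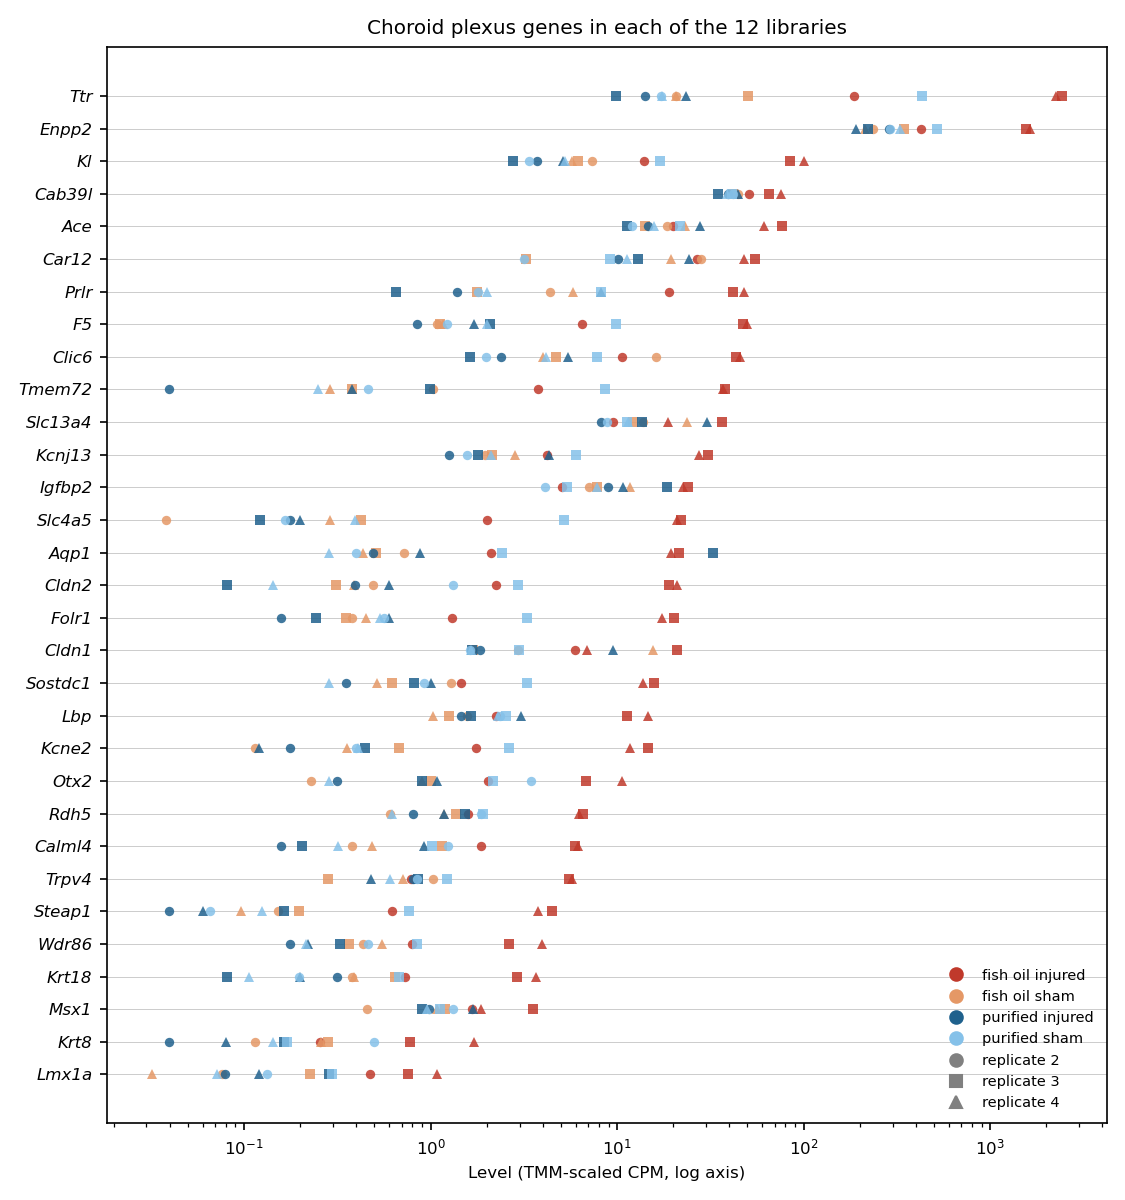
Level of each of the 31 genes in each of the 12 libraries (TMM-scaled CPM, log axis), with groups by colour and replicates by shape. Red squares and triangles, fish oil injured replicates 3 and 4, lie at the right end of most lines, and the exceptions are Aqp1, where purified injured replicate 3 is highest at 32.5 CPM, and Slc13a4 and Cldn1, where other libraries lie between them.

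Counted over the genes, all 3 fish oil injured libraries were above all 3 fish oil sham libraries for 23 of 31 genes (74.2%), where the share over all tested genes was 4.97%. Since the genes were chosen with these levels known, nothing is read from that difference. Clic6, Slc13a4, Cldn1, Igfbp2, Ace, Trpv4, Krt8 and Car12 were the exceptions. Fish oil injured replicate 2 was the lowest of its group for all 31 genes. It was above all fish oil sham libraries for 23 of them, replicate 3 for 31 and replicate 4 for 29, where the shares over all tested genes were 24.9%, 26.9% and 26.9%. Fish oil injured replicates 3 and 4 were above each of the 9 libraries of the other groups for 28 of the 31, all but Aqp1, Slc13a4 and Cldn1, and for 3.31% of all tested genes.

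Injury on the fish oil diet gave log2 fold changes above 0 for all 31 genes, with a median of 2.78, against a median of -0.01 over all tested genes, of which 49% were above 0. Without the high libraries the median was 0.86, with 28 of 31 above 0, and Slc13a4, Cldn1 and Igfbp2 were at -0.80, -0.19 and -0.83. The share of all genes above 0 was not computed for fits that leave out libraries, here or in the comparisons below. By edgeR's quasi-likelihood test with Benjamini-Hochberg adjustment over 19252 genes, 0 of the 31 and 0% of all genes passed the threshold of 0.05, and the lowest adjusted p of the 31 was 0.835, for Lbp. An unadjusted p under 0.05 with a higher level was found for 27 of the 31 and for 1.58% of all genes. By DESeq2, 16 of the 31 and 0.192% of all genes passed. Without fish oil injured replicate 2, edgeR called Enpp2 and Lbp, and 0.0354% of all genes.

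Diet in injured mice, fish oil injured over purified injured, shares the fish oil injured libraries with that comparison. All 31 log2 fold changes were above 0, with a median of 3.25, against 0.01 over all genes, of which 50.8% were above 0. Without the high libraries the median was 1.41 with 28 of 31 above 0, Aqp1, Igfbp2 and Slc13a4 standing at -2.42, -1.34 and -0.87. Fish oil injured libraries were all above purified injured libraries for 22 of 31 genes, where the share over all genes was 5.62%. By edgeR, 0 of the 31 and 0% of all genes passed, with a lowest adjusted p of 0.362, and an unadjusted p under 0.05 with a higher level was found for 26 of the 31 and 3.89% of all genes. DESeq2 called 23 of the 31 and 0.966% of all genes. Without fish oil injured replicate 2, edgeR called Folr1, Kl, Enpp2, Wdr86, Lbp and Cab39l, and 0.0708% of all genes.

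Injury on the purified diet showed no such elevation. Of the 31 genes, 7 were above 0, where 50.6% of all tested genes were, and the median log2 fold change was -0.69, against 0.00 over all genes. The lowest was Slc4a5 at -3.48 ± 1.36 and the highest Aqp1 at 3.47 ± 1.49. The negative median rested on purified sham replicate 3, without which it was -0.02 with 14 of 31 above 0. Purified injured libraries were all above purified sham libraries for 1 gene, Igfbp2, where the share over all genes was 4.91%, and all below for 1, Enpp2, where it was 6.68%. By edgeR 0 of the 31 and 0% of all genes passed, with 2 genes at an unadjusted p under 0.05 and higher (3.93% of all genes) and 2 lower (2.57% of all genes). DESeq2 called 0 of the 31 and 0.0727% of all genes.

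Diet in sham mice, fish oil sham over purified sham, gave 9 of 31 genes above 0, where 51.1% of all tested genes were, with a median of -0.48. Without purified sham replicate 3 the median turned to 0.33, with 18 of 31 above 0. Folr1, F5 and Lbp had all fish oil sham libraries below all purified sham libraries, which held for 7.45% of all genes, and Slc13a4 had them all above, which held for 6.31%. By edgeR 0 of the 31 and 0% of all genes passed, with 2 genes lower at an unadjusted p under 0.05 (1.95% of all genes) and 0 higher (1.74%). DESeq2 called 0 of the 31 and 0.0883% of all genes.

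The diet by injury interaction, the difference between the injury effect on the fish oil diet and that on the purified diet, was above 0 for 28 of 31 genes (47.6% of all genes), all but Slc13a4, Cldn1 and Igfbp2. Its median was 3.40, and 1.08 with 25 of 31 above 0 without the high libraries. By edgeR 0 of the 31 and 0% of all genes passed, the lowest adjusted p being 0.82, and an unadjusted p under 0.05 with a positive value was found for 24 (2.85% of all genes). DESeq2 called 11 of the 31 and 0.109% of all genes. Averaged over the diets, injury gave a median of 1.13 with all 31 above 0 (50.3% of all genes), and 15 at an unadjusted p under 0.05 and higher (1.89% of all genes). Without the high libraries that median was 0.50, with 29 above 0. Averaged over sham and injured, diet gave a median of 1.47 with 30 above 0 (52.5% of all genes), and 20 at an unadjusted p under 0.05 and higher (2.75% of all genes). Without the high libraries it was 0.78, with 27 above 0. In both averages edgeR passed 0 of the 31 and 0% of all genes, and DESeq2 called 0 of the 31 and 0.0156% of all genes for injury, and 2 of the 31, Clic6 and Krt18, and 0.514% of all genes for diet. Limma-voom called 0 of the 31 in each of the 7 comparisons, with calls for 0.00519% of all genes for injury on the fish oil diet, 0.0104% for injury averaged over the diets and 0% in the others.

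**Figure D4:**
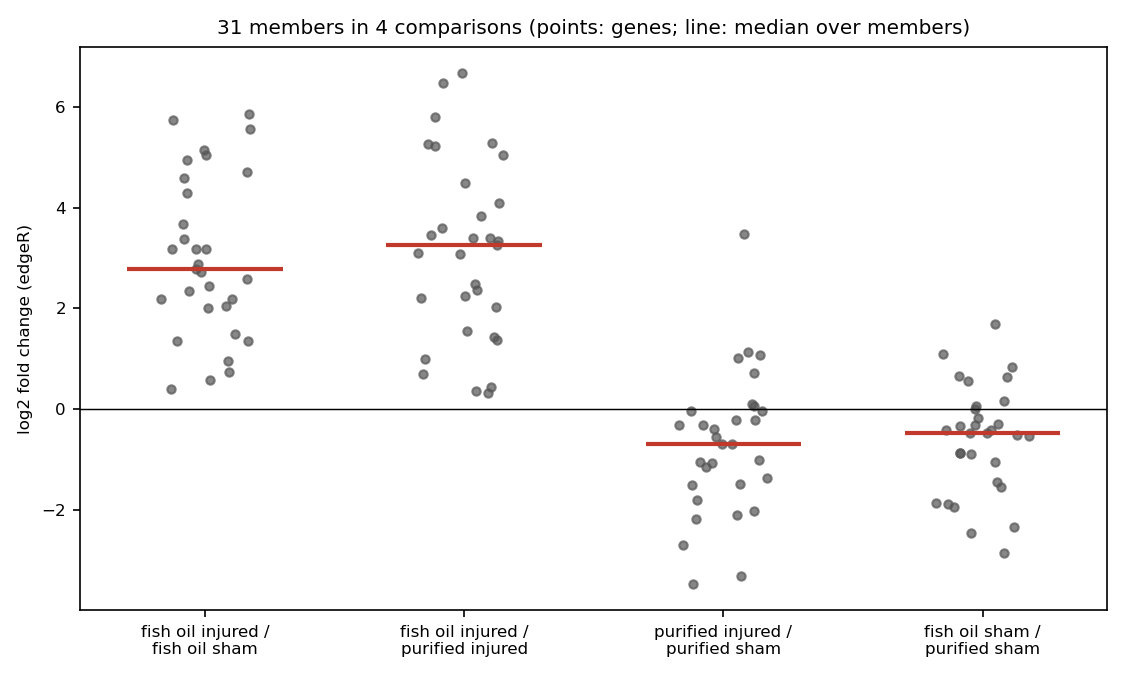
edgeR log2 fold changes of the 31 genes (points) in 4 comparisons, with the median of each as a line; the first group named is on top of the ratio. All points lie above 0 in both comparisons that hold the fish oil injured libraries, with medians of 2.78 and 3.25, and the medians of the other comparisons are -0.69 and -0.48.

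The genes could stand in 1 proportion to each other in the libraries in which they are high, or each could follow its own pattern. To describe this, the excess of a library over the mean of the 3 fish oil sham libraries was taken for each gene and divided by the same excess of Ttr, and for purified sham replicate 3 the other 2 purified sham libraries served as the base. The excess of Ttr itself was 155, 2386 and 2225 CPM in fish oil injured libraries and 417 CPM in purified sham replicate 3. Per 1000 CPM of Ttr excess, Kcnj13 had 12.4, 11.9 and 11.4 CPM in fish oil injured replicates 2, 3 and 4 and 10 CPM in purified sham replicate 3. For F5 these values were 34.6, 19.5 and 21.8 CPM in fish oil injured libraries and 19.8 CPM in purified sham replicate 3, and for Folr1 they were 5.88, 8.33 and 7.66 CPM in fish oil injured libraries and 6.55 CPM in purified sham replicate 3.

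In fish oil injured replicate 4 the ratios were close to those of replicate 3. The median over 30 genes was 1.08-fold, with 22 genes within 1.5-fold and 26 within 2-fold. Krt8 was above, at 2.89-fold, and Msx1, Slc13a4 and Cldn1 were below, at 0.392-fold, 0.124-fold and 0.0161-fold. The Ttr excess was similar in both libraries, at 2386 and 2225 CPM, and the genes were chosen with these levels known. A ratio close to that of replicate 3 therefore restates that a gene was about equally high in both. Such counts were not taken over other genes for any library.

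In purified sham replicate 3, of another group, the median was 0.777-fold of the ratio in fish oil injured replicate 3, with 17 genes within 1.5-fold and 21 within 2-fold. Slc4a5, Tmem72, Sostdc1, F5 and Enpp2 were at 1.28-fold, 1.25-fold, 1.02-fold, 1.02-fold and 0.94-fold. Otx2, Calml4, Lbp, Slc13a4, Car12 and Cab39l were below 0.5-fold, with Lbp lowest at 0.12-fold, and Msx1, Igfbp2 and Krt8 had no excess. Purified sham replicate 2, part of the base here, was itself above replicate 3 for Otx2, Calml4, Msx1, Krt8 and Cab39l. For Otx2, Calml4 and Krt8 it was at 3.47, 1.24 and 0.496 CPM. Replicate 3 was at 2.17, 1.02 and 0.17 CPM, and replicate 4 at 0.285, 0.321 and 0.143 CPM. Ratios against replicate 4 alone were not computed. The subtracted base made up very different parts of the level. It was 65.7% of the level in fish oil injured replicate 3 for Cab39l, 44.9% for Slc13a4 and 37.3% for Igfbp2, against 1.13% for Slc4a5 and 1.26% for Ttr.

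Fish oil injured replicate 2 departed further. The median was 1.48-fold of the ratio in replicate 3, with 11 of 30 genes within 1.5-fold and 17 within 2-fold. Lmx1a, Prlr, Cab39l, Msx1, Car12, Calml4, Otx2 and Wdr86 were at more than 2-fold, from 2.44-fold for Wdr86 to 8.62-fold for Lmx1a. Slc13a4, Cldn1 and Igfbp2 had no excess there, and Ace and Trpv4 were at 0.371-fold and 0.344-fold. Without subtraction of a base the median was 3.16-fold. Prlr had an excess of 14.9 CPM beside 155 CPM of Ttr in replicate 2, and of 37.8 CPM beside 2386 CPM of Ttr in replicate 3. Set against the SD of the 3 fish oil sham libraries, the excess in replicate 2 was 7.24 SD for Prlr, 5.7 for Cab39l, 3.79 for Wdr86 and 3.57 for Lmx1a. It was 3.1 SD for Otx2, 2.85 for Calml4, 1.91 for Msx1 and 0.773 for Car12. For Ace and Trpv4 it was 0.315 and 0.29 SD, so the excess of these genes and of Car12 lay within that spread. The departures themselves were not tested.

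**Figure D5:**
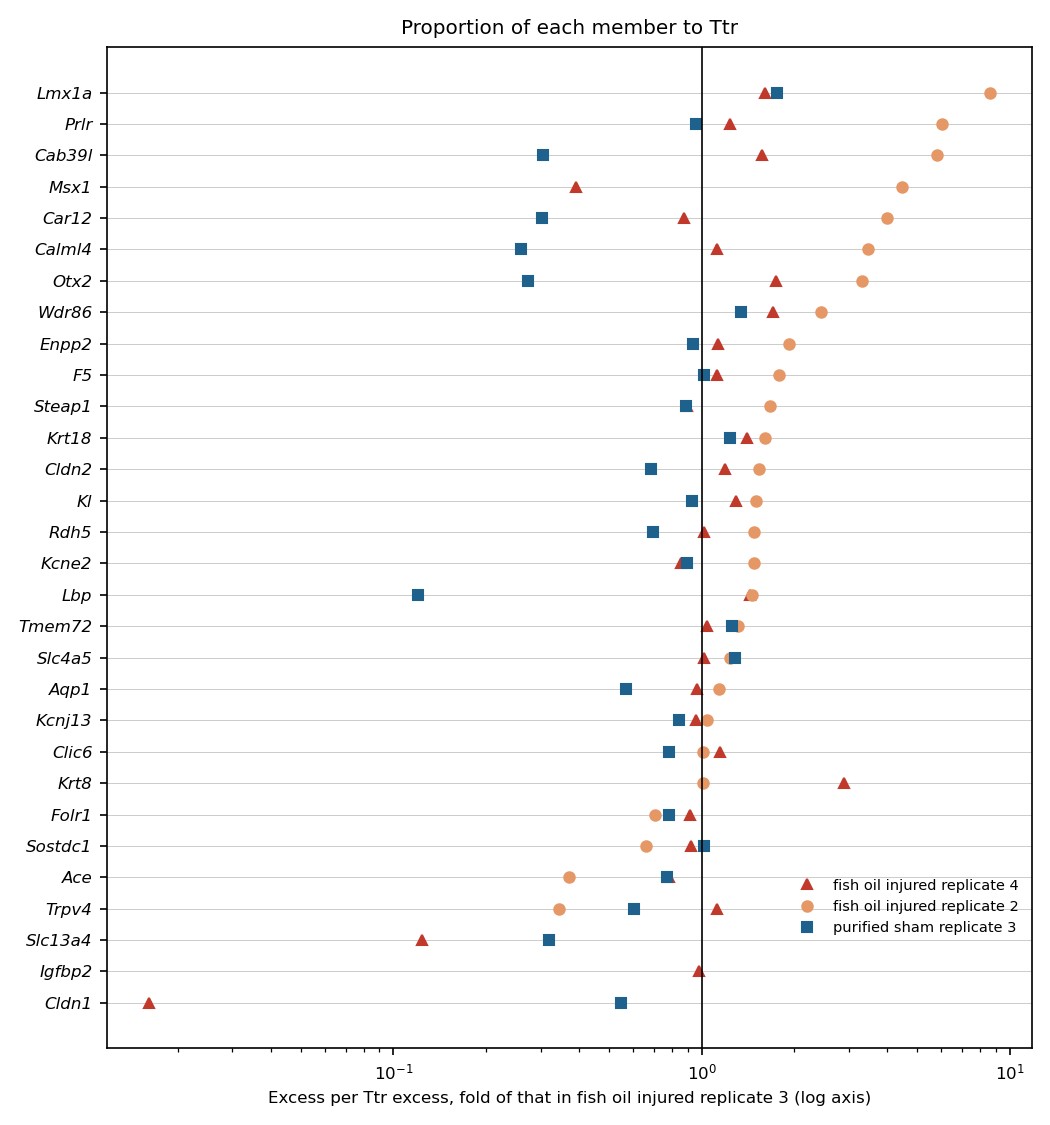
Excess of each gene per excess of Ttr, as a fold of the same ratio in fish oil injured replicate 3 (log axis, line at 1), for fish oil injured replicate 4, fish oil injured replicate 2 and purified sham replicate 3. Most triangles (replicate 4) lie near the line, the circles (replicate 2) spread to 8.62-fold for Lmx1a, and points with no positive excess are not drawn.

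Compared per kilobase of exon, the excess in fish oil injured replicate 3 was 2012 CPM per kb for Ttr, 224 for Enpp2, 22.3 for Kcnj13 and 11 for Ace. In fish oil injured replicate 4 the same genes had 1876, 237, 19.9 and 8.03 CPM per kb. Folr1, Kl, Sostdc1, Kcne2, Igfbp2, Clic6 and Aqp1 lay between 7.99 and 8.94 CPM per kb in replicate 3, and Lmx1a, at 0.189, was the lowest of the 31. Ttr thus stood highest and Enpp2 next in both libraries.

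Slc13a4 and Cldn1 were high in libraries in which genes of the meninges were high. Dcn, which encodes decorin of fibroblasts, had 33.3, 82.7 and 8.56 CPM in fish oil injured, 19.6, 13.3 and 79.3 CPM in fish oil sham, 7.01, 16.3 and 93.0 CPM in purified injured, and 11, 8.49 and 16.6 CPM in purified sham libraries. Fish oil injured replicate 3, fish oil sham replicate 4 and purified injured replicate 4 held the highest Dcn, the highest Slc13a4 and the highest Cldn1 of their groups, while in the purified sham group replicate 4 had the highest Dcn and Slc13a4 and replicate 3 the highest Cldn1. Over 16 genes of meningeal and stromal fibroblasts, the summed level ran from 64.9 to 256 CPM in fish oil injured, 115 to 229 CPM in fish oil sham, 84.3 to 283 CPM in purified injured and 85.2 to 119 CPM in purified sham libraries. For injury on the fish oil diet 2 of the 16 were above 0 (49% of all tested genes), with a median of -0.17. The part of these cells in Slc13a4 and Cldn1 was not tested.

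A list of 34 further genes known from choroid plexus epithelium was taken beside the 31, of which 33 were found in the table and 31 tested. This list, like the other gene lists used here, was drawn up with earlier results of these libraries known. Its counts are therefore no independent test. For injury on fish oil 27 of these 31 were above 0, where 49% of all tested genes were, with a median of 0.88. An unadjusted p under 0.05 with a higher level was found for 13, and for 1.58% of all tested genes, but 0 passed the adjusted threshold in edgeR. Col8a1, a short-chain collagen, had 5.56, 24.0 and 26.1 CPM in fish oil injured, 3.52, 4.27 and 4.26 CPM in fish oil sham, 3.21, 1.91 and 6.96 CPM in purified injured, and 6.61, 12.2 and 6.93 CPM in purified sham libraries. The augurin gene 1500015O10Rik had 2.25, 14.8 and 12 CPM in fish oil injured, 1.10, 1.14 and 1.57 CPM in fish oil sham, 1.06, 1.12 and 1.64 CPM in purified injured, and 1.12, 2.26 and 0.588 CPM in purified sham libraries. Both had fish oil injured replicates 3 and 4 highest and purified sham replicate 3 at the top of its group. They are shown for being among the largest log2 fold changes outside the 31. Prr32, another such gene of the list, had 0.033, 0.149 and 0.463 CPM in purified sham libraries, so that replicate 4 was highest there. Over the list, purified sham replicate 3 was above the other 2 of its group for 18 of 33 genes. This held for 33.3% of all tested genes. Slc4a10, Htr2c, Trpm3 and Vat1l, the most abundant of the list, are also expressed by neurons, and their log2 fold changes were 0.26 ± 0.17, -0.29 ± 0.57, 0.74 ± 0.42 and -0.03 ± 0.40.

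Genes of the secretion machinery that other brain cells share showed little of the pattern. Of 14 such genes, which include the sodium pump and the NKCC1 cotransporter, 11 were above 0 for injury on fish oil (49% of all tested genes), with a median of 0.09, and 0 had an unadjusted p under 0.05. Of 9 genes that handle retinoids and thyroxine, the cargo of transthyretin, 6 were above 0 (49% of all tested genes), with a median of 0.13. An unadjusted p under 0.05 with a higher level was found for 3 (1.58% of all tested genes). These were Slco1c1, the thyroxine transporter of brain endothelium and choroid plexus, at 0.57 ± 0.14, the deiodinase gene Dio2 at 0.61 ± 0.21, and Stra6, the receptor for retinol-binding protein, at 1.03 ± 0.44, the last of these chosen after its value was seen. By edgeR 0 of either list passed the adjusted threshold.

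Other cell types around the ventricles were read beside these values. Of 17 tested genes of ependymal cells and motile cilia, 17 were above 0 for injury on fish oil (49% of all tested genes), with a median of 0.85, and 4 had an unadjusted p under 0.05 and a higher level (1.58% of all tested genes). Their summed level ran from 47.6 to 64.3 CPM in fish oil injured, 29.0 to 38.5 CPM in fish oil sham, 39.6 to 77.4 CPM in purified injured and 26.0 to 67.7 CPM in purified sham libraries. The 77.4 CPM was in purified injured replicate 3, with 48.2 CPM from Dnah11, and the 67.7 CPM in purified sham replicate 2. Purified sham replicate 3, the highest of its group for Ttr, had 31.5 CPM. Foxj1, the regulator of motile cilia, chosen after its values were seen, was at 1.94, 2.33 and 2.60 CPM in fish oil injured and 2.11, 1.87 and 1.52 CPM in fish oil sham libraries, which overlap. Drc7, a cilia gene, had 3.58, 8.63 and 10.9 CPM in fish oil injured and 1.73, 1.34 and 1.10 CPM in fish oil sham libraries, which do not. The part of ependymal cells in the levels of the 31 was not tested.

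The leaky vessels of the choroid plexus are marked by Plvap, which had 1.53, 2.35 and 2.33 CPM in fish oil injured, 2.87, 2.84 and 2.44 CPM in fish oil sham, 3.33, 2.28 and 1.94 CPM in purified injured, and 3.12, 2.79 and 2.12 CPM in purified sham libraries. It was not higher in the libraries with high Ttr. Of 5 genes of fenestrated endothelium 2 were above 0 for injury on fish oil (49% of all tested genes), with a median of -0.05. The median log2 fold change was 0.00 over 10 genes of brain endothelium, 0.15 over 5 macrophage genes and 0.07 over 5 blood cell genes. Hippocampal genes, which could come with tissue at the ventricle, had a median of 0.01, thalamic and habenular genes -0.24, striatal genes -1.33, astrocyte genes 0.00, oligodendrocyte genes -0.18 and cortical neuron genes 0.18. It was 0.18 for hypothalamic and tanycyte genes, -0.94 for olfactory bulb genes and -0.39 for pineal genes. The summed striatal level was 2175, 184 and 244 CPM in fish oil sham and 212, 283 and 501 CPM in fish oil injured libraries. It was at most 299 CPM in purified injured and 882 CPM in purified sham libraries. Fish oil sham replicate 2, the highest, is part of the base subtracted for the ratios to Ttr. Of the 9 libraries outside the fish oil injured group, it had the highest Clic6 and Car12. The part of striatal tissue in its levels was not tested.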

How the data were processed

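The deposited table holds raw counts of reads per gene for 12 libraries, which the authors made with STAR 2.5.2a and featureCounts 1.4.3-p1 on mm10, per the submitters' processing notes. Per the labels' protocols, total RNA was column-purified and libraries were stranded and sequenced as paired reads. Annotation release, strand setting and the handling of multi-mapping reads are not stated there, and overlapping genes may therefore share reads. Symbols and exon lengths came from GENCODE M21 on GRCm38, and 27 of the 31 identifiers matched with their version.

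Levels are CPM, counts scaled to a common library size with TMM factors. With edgeR 4.0.16 in R 4.3.3, filterByExpr at its minimum count of 10 kept 19252 genes, and glmQLFit and glmQLFTest (robust) were fitted to 4 group means with 8 residual degrees of freedom. Standard errors were derived from the F statistic, and Benjamini-Hochberg adjustment over all tested genes used a threshold of 0.05. DESeq2 1.42.0 and limma-voom (limma 3.58.1), other scalings and filters and leaving out libraries were alternatives. The procedure was tested on simulated data.

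The genes and lists were chosen with earlier results of these data known. Named genes were all 31, up to 4 of each other list with the highest mean CPM, and the 15 other genes with a mean of at least 1 CPM and the largest log2 fold change for injury on the fish oil diet, besides genes said to be chosen after their values were seen. No pair of libraries in a group agreed within sampling noise, so each counted once.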

Additional observations from a re-analysis of the deposited data

How the results depend on the processing

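Without the high libraries together, chosen after seeing the data, the median log2 fold change of the 31 genes was 0.86 for injury on the fish oil diet, 1.41 for diet in injured mice, 1.08 for the interaction, 0.50 for injury averaged over the diets and 0.78 for the diet average. Leaving out 1 library at a time, it ran from 2.41 to 3.16, from 2.82 to 3.70 and from 2.72 to 3.72 in the first 3 of these comparisons, from 0.98 to 1.36 for injury averaged over the diets and from 1.17 to 1.70 for the diet average. It ran from -1.07 to -0.02 for injury on the purified diet and from -0.71 to 0.33 for diet in sham mice, both highest without purified sham replicate 3. Genes called among the 31 ran from 0 to 2 (injury on the fish oil diet) and 0 to 6 (diet in injured mice), both highest without fish oil injured replicate 2. Over all genes, calls ran from 0 to 7 for injury on the fish oil diet, from 0 to 83 for diet in injured mice (83 without purified injured replicate 4) and from 0 to 6 for the diet average.

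DESeq2 called 16, 23, 11 and 2 of the 31 for injury on the fish oil diet, diet in injured mice, the interaction and the diet average. Over all genes it called 37, 186, 21 and 99 there, 14 for injury on the purified diet, 17 for diet in sham mice and 3 for the injury average. Limma-voom called 1 gene for injury on the fish oil diet and 2 for the injury average, and with a correlation of -0.257 for shared first numbers in library names it also called 2 for the diet average. With no filter the averages gave 1 and 2 calls, for injury and diet, and a threshold of 0.10 gave 1 for injury. Without both purified injured replicate 3 and, of fish oil sham, replicate 2, diet in injured mice gave 1 call. Without subtraction of a base, the ratios to Ttr in fish oil injured replicate 2 had a median of 3.16-fold of replicate 3. The cause of these differences was not tested.

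Over the alternatives that touch a comparison, the log2 fold changes of the 31 genes kept their sign in 548 of 553 values for injury on the fish oil diet, 545 of 553 for diet in injured mice, 519 of 550 for injury on the purified diet, 503 of 551 for diet in sham mice and 689 of 708 for the interaction. The alternatives refit the same counts for genes chosen with their levels known, so these values are not independent and kept signs are no test. The same count was not taken over all genes. Correlations of deviations ran from -0.371 to 0.278 between same-numbered libraries and from -0.34 to 0.379 between differently numbered ones. They gave no sign of a pairing by replicate number, but with 3 libraries a group they cannot exclude it. With the replicate number as a block, 0 of the 31 were called and the median for injury on the fish oil diet was 2.74. With 3 libraries a group, 1 or 2 of which set most levels, the group differences cannot be told apart from differences between single libraries. Before TMM scaling, genes under 1 CPM rest on fewer than 70.8 counts a library.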

Other observations

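Outside the 31, 15 genes whose level averaged 1 CPM or more over the 12 libraries had the largest log2 fold changes for injury on the fish oil diet. Of these, 8 belong to the lists drawn up with earlier results known: Prr32, 1500015O10Rik, Col8a1 and Slc2a12 to the further choroid plexus genes, Dnah6, Drc7 and Dnah11 to the ependymal genes and Dsp to the hippocampal genes. Mfrp, a membrane frizzled-related protein gene, had 2.29, 24.3 and 22.3 CPM in fish oil injured, 0.171, 0.479 and 0.194 CPM in fish oil sham, 0.256, 0.163 and 0.4 CPM in purified injured, and 0.132, 3.00 and 0.0356 CPM in purified sham libraries, with a log2 fold change of 5.82 ± 1.4 (SE). It was thus high in the same 3 libraries as Ttr. Slc2a12, a glucose transporter gene, had 4.51, 20.9 and 23.3 CPM in fish oil injured and 3.65, 3.31 and 4.58 CPM in fish oil sham libraries, and Abca4, a lipid transporter gene known from photoreceptors, had 3.65, 25 and 19.1 CPM in fish oil injured and 6.06, 4.35 and 5.05 CPM in fish oil sham libraries. The others were Stoml3, Rtp1, Chrnb4, Ttc21a and Pon3. By edgeR with Benjamini-Hochberg adjustment 0 of the 15 passed.

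Stoml3, Dnah11 and Chrnb4 had another pattern. They were highest in purified injured replicate 3, at 25.2, 48.2 and 7.17 CPM, the library in which Aqp1 and the olfactory bulb genes were highest.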
